A study of Mus musculus with 2 samples.

Results

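The genes described here encode receptors that steer white blood cells along gradients of attractant molecules. They were taken from the expression table by symbol, as every row for a chemokine receptor, atypical chemokine receptor, formyl peptide receptor, complement anaphylatoxin receptor, chemerin, platelet-activating factor (PAF) or leukotriene receptor, prostanoid receptor of the E or D2 type, sphingosine 1-phosphate receptor or histamine receptor. The choice by symbol used no measured value and gave 48 genes of the 17943 in the table. RNA was sequenced from whole lungs of wild-type C57BL/6 mice aged 6-8 weeks, dosed through the nose over 3 days with adenovirus. The virus was the control Adv-EV in one group (n = 1 library) and Adv-IL-17B, made to overexpress interleukin 17B, in the other (n = 1 library), so both groups received virus and no untreated lung was analysed here. Il17b, the overexpressed gene, was listed at 0 FPKM in Adv-EV and stood at 93.2 in Adv-IL-17B. Overexpression from a viral vector limits the model, and a library may hold RNA of 1 mouse or of several, which the sources used here do not give.

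Most of these receptors cross the membrane 7 times and signal through heterotrimeric G proteins, chiefly those of the Gi type, to phosphoinositide 3-kinase gamma and the Rac GTPases that drive cell movement. Atypical chemokine receptors bind ligand without such signalling and remove or present it instead. In lung, neutrophils are known for CXCR2, formyl peptide, C5a and leukotriene B4 receptors, monocytes for CCR2 and CX3CR1, and lymphocytes for CCR7, CXCR3, CXCR5 and CXCR6. The label holds only in part for the prostanoid, sphingosine 1-phosphate and histamine receptors and for Ackr1 to Ackr4, which endothelium, smooth muscle or epithelium also express.

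Values are FPKM as deposited, read fragments scaled to transcript length and to library size. The sums of FPKM were 539847 for Adv-EV and 547075 for Adv-IL-17B, and steps in the low values put the depth near 5600000 and 5620000 fragments. In a transcript of 1 kb a value of 0 therefore allows up to 0.536 FPKM with Adv-EV against 0.534 with Adv-IL-17B, the level of 3 fragments. Folds are plain ratios of FPKM, each with a 95% interval (exact Clopper-Pearson) from estimated fragment numbers, which covers counting error only. The design text speaks of triplicates, but the table has 1 column per group, so the spread between replicates is unknown, nothing was tested and no difference below has a replicate check. A gene was counted as higher or lower when its log2 ratio of FPKM + 0.1 was at least 1 or at most -1, a 2-fold limit. Markers of lung were present, with Sftpc of alveolar type 2 cells at 20844 and 11922 FPKM in Adv-EV and Adv-IL-17B and Pecam1 of endothelium at 232 and 199.

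The receptor genes leaned towards higher values in the Adv-IL-17B library. Of the 48 genes, 39 had a ratio above 1, where 47.6% of all genes did without a filter. Of all 48, 18 were at least 2-fold higher and 0 lower, where 6.39% of all genes were higher and 5.64% lower. A mean of at least 0.5 FPKM was reached by 42 of the 48. Of these 42, 16 were higher and 0 lower, beside 3.95% and 2.68% of the 15056 genes that passed, and 35 had a ratio above 1, beside 48.6%. At a 1.5-fold limit 23 were higher and 2 lower, where 9.44% and 8.2% of genes were. The counting interval lay above 1 for 26 and below 1 for 3, where it did so for 17.3% and 16.3% of genes with a known length. The median log2 ratio was 0.67 over the 42 and 0.65 over all 48, beside -0.01 over all genes that passed the filter. Of the 16, Hrh2 (0.38 FPKM), Ptger3 (0.43) and Ccr9 (0.33) were under 0.5 FPKM in Adv-EV. They passed the filter only through their Adv-IL-17B values, so the filter itself favours higher ratios among low genes like these. With a pseudocount of 1 in place of 0.1, 8 of the 16 (Ltb4r1, Ackr1, Ptger2, Cysltr1, Cxcr1, Cysltr2, Ptger3 and Ccr9) came inside the limit. The share of all genes past the limit at that pseudocount was not computed.

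**Figure D1:**
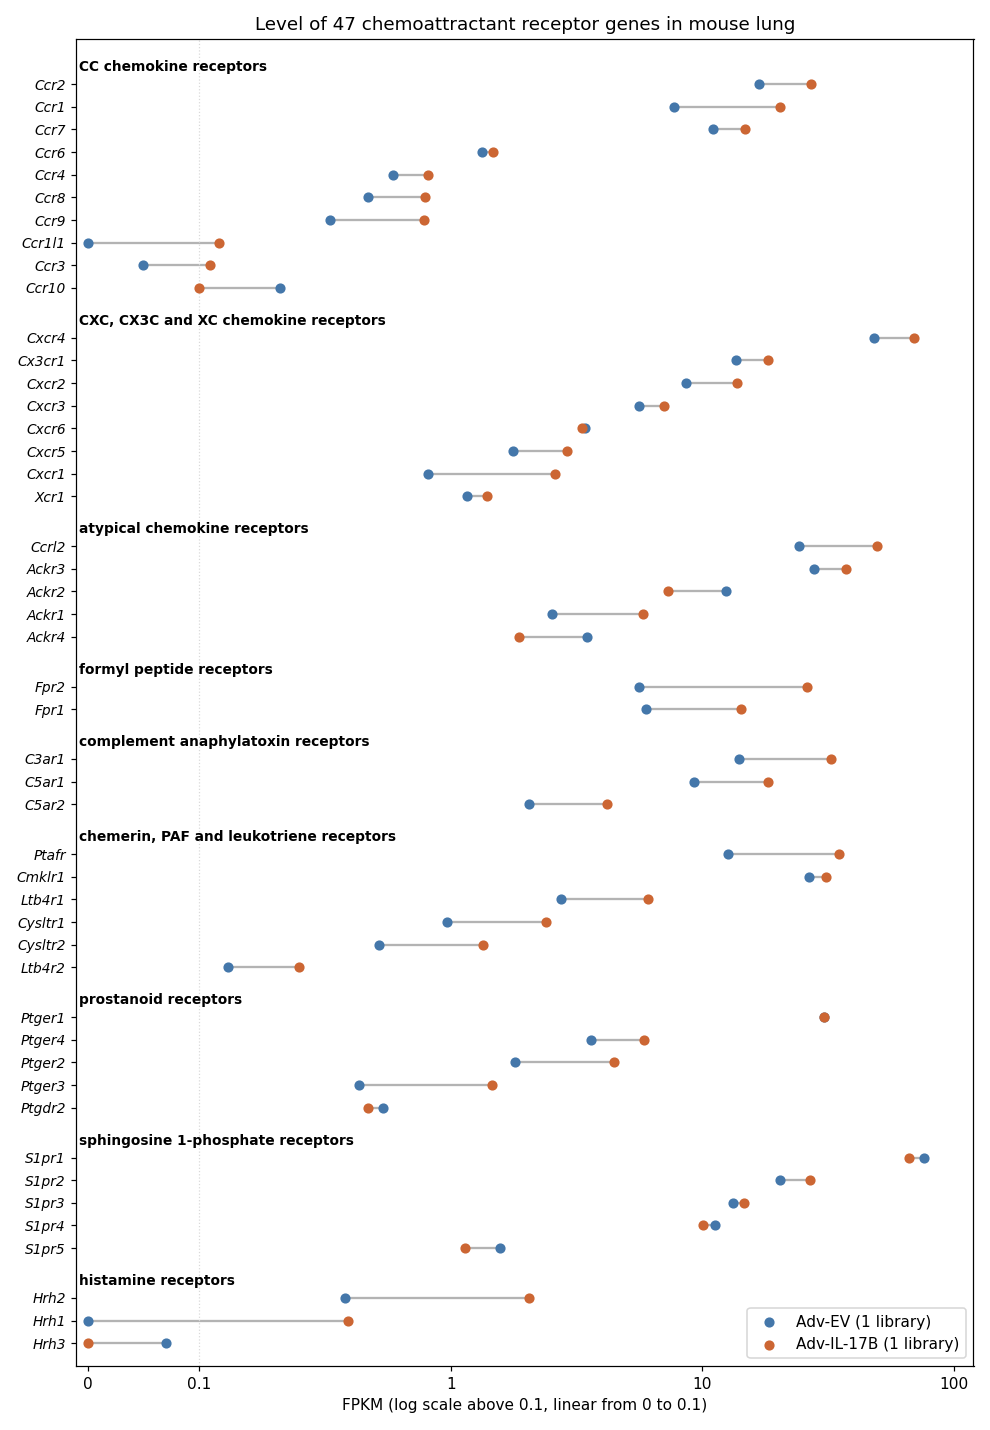
Level of each of 47 receptor genes in FPKM on a horizontal axis that is logarithmic above 0.1 and linear below, with 1 point per library and a grey line joining the libraries. Genes are grouped by class and ordered by their level in Adv-IL-17B. Cxcr4 (69.4 FPKM) and S1pr1 (66.3 FPKM) lead in Adv-IL-17B, and 38 of the 47 genes have the Adv-IL-17B point on the right.

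In Adv-IL-17B the CC chemokine receptors were led by the receptors of monocytes and macrophages. Ccr1, whose protein binds CCL3 and CCL5, stood at 7.71 FPKM with Adv-EV against 20.4 with Adv-IL-17B. That was 2.65 times as high, with an interval of 2.15 to 3.30 from about 121 and 322 fragments. Ccr2, the receptor that brings monocytes out of the bone marrow towards CCL2 and CCL7, had the highest level of the class in both libraries, at 16.8 and 27.1 FPKM. Its 1.62-fold ratio (interval 1.39 to 1.88) lay inside the 2-fold limit. The intervals of Ccr1 and Ccr2 did not overlap. These receptor genes have close paralogs, and how the authors divided reads between similar genes was not stated in the sources used here.

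The other CC receptors, most of them known from lymphocytes, were less abundant than Ccr2 in both libraries. Ccr7 was above Ccr1 in Adv-EV and below it in Adv-IL-17B. Ccr7, which guides dendritic cells and naive T cells to lymph nodes, stood at 11.0 FPKM with Adv-EV against 14.8 with Adv-IL-17B (1.35 times as high, interval 1.06 to 1.72). Ccr6, the receptor for CCL20, stood at 1.33 and 1.47 FPKM, and its interval of 0.468 to 2.48 included equal levels. Ccr4, of type 2 and skin-homing T cells, stood at 0.59 and 0.81 FPKM, and Ccr8 at 0.47 and 0.79 FPKM, from about 3 and 5 fragments. Ccr9, known for homing to the gut, was past the 2-fold limit at 0.33 and 0.78 FPKM, from about 10 and 23 fragments (interval 1.05 to 5.40). An antisense transcript shares 18.8% of the exon bases of Ccr9, and the handling of strand was not stated in the sources used here. Ccr10 (0.21 and 0.10 FPKM), the eosinophil receptor gene Ccr3 (0.05 and 0.11 FPKM) and Ccr1l1 (listed at 0, then 0.12 FPKM) rested on at most 2 fragments in either library. The 7 genes named here that passed the filter all had higher values in Adv-IL-17B, and Ccr1 and Ccr9 passed the 2-fold limit.

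Among the CXC receptors the neutrophil receptors Cxcr1 and Cxcr2 both had an interval above 1. Cxcr2, the main mouse receptor for CXCL1, CXCL2 and CXCL5, stood at 8.66 FPKM with Adv-EV against 13.8 with Adv-IL-17B (1.59 times as high, interval 1.29 to 1.97). Its neighbour and paralog Cxcr1 stood at 0.81 and 2.59 FPKM. That was 3.20-fold higher, from about 5 and 16 fragments, with an interval of 1.12 to 11.1 that holds the ratio of Cxcr2. Cxcr4, the CXCL12 receptor that retains neutrophils and progenitors in bone marrow, was the most abundant of these receptors, at 48.2 and 69.4 FPKM (1.44 times as high, interval 1.28 to 1.62). Cx3cr1, the fractalkine receptor of patrolling monocytes and tissue macrophages, stood at 13.6 and 18.2 FPKM (1.34 times as high, interval 1.14 to 1.57).

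Among the CXC, CX3C and XC receptors, those of T cells, B cells and cross-presenting dendritic cells had intervals that included equal levels. Cxcr3, of type 1 T cells and NK cells, stood at 5.61 FPKM with Adv-EV against 7.05 with Adv-IL-17B, and Cxcr6, of tissue-resident T cells, at 3.42 and 3.32. Cxcr5, which guides B cells into follicles, stood at 1.77 and 2.91 FPKM (interval 0.965 to 2.74). Xcr1, of cross-presenting dendritic cells, stood at 1.16 and 1.39 FPKM. Of the 8 genes in this class, 7 were higher in Adv-IL-17B and Cxcr1 alone passed the 2-fold limit.

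The atypical receptors went in both directions. Ccrl2, which binds chemerin and presents it to other cells, stood at 24.2 FPKM with Adv-EV against 49.4 with Adv-IL-17B (2.04 times as high, interval 1.79 to 2.34) and moved from rank 6 to rank 3 among the 48 genes. Ackr1, a chemokine-binding receptor of venular endothelium and red cells, stood at 2.52 and 5.81 FPKM (2.31 times as high, interval 1.25 to 4.44). Ackr1 shares 25.7% of its exon bases with Cadm3 on the same strand, and Cadm3 was at 0.17 and 0.26 FPKM. Ackr3, a scavenger of CXCL12, stood at 27.9 and 37.2 FPKM (1.34 times as high, interval 1.18 to 1.51). Ackr2, which clears inflammatory CC chemokines and is known from lymphatic endothelium, was lower, at 12.5 FPKM with Adv-EV against 7.28 with Adv-IL-17B (lower by 1.72-fold, interval 1.37 to 2.17). Ackr4, which clears CCL19, CCL21 and CCL25, was also lower, at 3.49 and 1.87 FPKM (1.87-fold lower, interval 1.11 to 3.13). Ackr2 and Ackr4 were the only members more than 1.5-fold lower among the 42, and the third gene with an interval below 1 was S1pr1. Of the 5 lymphatic endothelial markers, Lyve1 stood at 90.1 and 74.8 FPKM, Flt4 at 11.4 and 8.39, Mmrn1 at 3.23 and 1.88, Pdpn at 121 and 139 and Prox1 at 0.30 and 0.34. Of the 4 that passed the filter 3 had a ratio below 1, and their median log2 ratio was -0.35. The summed level of the 5, most of it from Pdpn, which alveolar type 1 cells also express, was 226 FPKM with Adv-EV against 224 with Adv-IL-17B, and their part in the lower Ackr2 and Ackr4 was not tested. In whole tissue, fewer cells of a type and less RNA per cell cannot be told apart.

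The stretches just before the start of Ccrl2 and Ackr2 are shown because these members differed in opposite directions while both hold matches to the NF-kappaB consensus, which the capitals mark. Sequences are from RefSeq on GRCm38.p6, cover the 250 bases before a start of the gene and read along its own strand. That of Ccrl2 lies at chr9:111057519-111057768 on the minus strand, with its match from -56 to -47 relative to the start, and the windows of the other starts of Ccrl2 hold none. That of Ackr2 lies at chr9:121898105-121898354 on the plus strand, with matches from -224 to -215 and from -64 to -55.
Ccrl2: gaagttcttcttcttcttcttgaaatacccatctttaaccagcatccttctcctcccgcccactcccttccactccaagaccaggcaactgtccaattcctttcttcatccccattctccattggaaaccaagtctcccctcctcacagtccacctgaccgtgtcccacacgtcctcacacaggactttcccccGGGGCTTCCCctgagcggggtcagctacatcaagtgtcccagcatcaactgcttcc
Ackr2: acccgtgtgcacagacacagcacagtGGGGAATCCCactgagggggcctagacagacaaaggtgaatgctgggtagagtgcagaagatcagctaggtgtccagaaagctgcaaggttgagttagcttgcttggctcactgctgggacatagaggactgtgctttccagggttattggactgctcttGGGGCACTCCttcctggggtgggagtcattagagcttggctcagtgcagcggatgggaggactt
The match was found before 3.9% of 32851 gene starts. Ccr3 (0.05 and 0.11 FPKM) and Ccr6 (1.33 and 1.47 FPKM) were the other members with a match, and their intervals included equal levels. A match is a run of letters and does not show that the factor binds there.

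Both formyl peptide receptor genes listed, Fpr1 and Fpr2, were past the 2-fold limit, and Fpr2 had the largest log2 ratio of the 42 members, 2.20. By plain fold Hrh2 was above it, on about 6 fragments in Adv-EV. Fpr2, which senses bacterial and mitochondrial formyl peptides as well as serum amyloid A and annexin A1, stood at 5.61 FPKM with Adv-EV against 26.1 with Adv-IL-17B. That was 4.66-fold higher, with an interval of 3.19 to 6.86 from about 35 and 162 fragments. Fpr3, which shares 3.7% of the exon bases of Fpr2 on the same strand, was not listed with a value. How reads were divided between such genes was not stated in the sources used here. Fpr1, the high-affinity formyl peptide receptor of neutrophils, stood at 6.00 and 14.3 FPKM (2.38 times as high, interval 1.68 to 3.53). In Adv-EV Fpr1 was slightly above Fpr2, and in Adv-IL-17B Fpr2 was above Fpr1. Their intervals overlapped between 3.19 and 3.53. Fpr2 moved from the 46.4th to the 81.5th percentile of all genes by level, and Fpr1 from the 47.8th to the 68.6th.

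Fpr1 and Fpr2 lie head to head on chromosome 17, Fpr1 from 17876471 to 17883939 on the minus strand and Fpr2 from 17887824 to 17893952 on the plus strand. The 250 bases before each start are shown because these neighbours differed by unequal folds. Capitals mark matches to a TATA box (TATAAA, either strand) and to a STAT site (TTCNNNGAA). That of Fpr1 lies at chr17:17883940-17884189 and that of Fpr2 at chr17:17887574-17887823.
Fpr1: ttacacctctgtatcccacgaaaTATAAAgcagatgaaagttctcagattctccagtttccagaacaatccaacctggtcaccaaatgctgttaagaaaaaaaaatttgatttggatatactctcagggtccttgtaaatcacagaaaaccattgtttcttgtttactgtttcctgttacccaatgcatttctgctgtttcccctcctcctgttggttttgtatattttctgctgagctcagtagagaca
Fpr2: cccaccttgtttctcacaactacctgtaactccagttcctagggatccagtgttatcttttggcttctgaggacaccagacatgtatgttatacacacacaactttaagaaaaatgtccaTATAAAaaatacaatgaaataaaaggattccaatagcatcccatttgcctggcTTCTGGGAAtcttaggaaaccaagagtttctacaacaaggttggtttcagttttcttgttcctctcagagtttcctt
Fpr2 has a STAT match from -77 to -69 relative to its start and Fpr1 has none in this window. The TATA matches lie from -227 to -222 for Fpr1 and from -130 to -125 for Fpr2, and no matches printed here overlap.

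All 3 complement anaphylatoxin receptors were about 2-fold higher. C3ar1, the receptor for C3a on macrophages and other myeloid cells, stood at 14.0 FPKM with Adv-EV against 32.45 with Adv-IL-17B (2.32 times as high, interval 2.04 to 2.64). C5ar1, the signalling receptor for C5a on neutrophils and macrophages, stood at 9.25 and 18.3 FPKM (1.98 times as high, interval 1.60 to 2.46). C5ar2, which binds C5a without G protein coupling, stood at 2.04 and 4.17 FPKM (2.04 times as high, interval 1.38 to 3.08) and came just inside the limit once 0.1 was added. C5ar1 and C5ar2 are neighbours on chromosome 7, and the level of C5ar1 was 4.53 times that of C5ar2 in Adv-EV and 4.39 times in Adv-IL-17B. The ligand genes differed less, with C3 at 285 and 345 FPKM and Hc, which encodes C5, at 62.2 and 46.4 FPKM.

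Of the 5 receptor genes for chemerin, PAF and leukotrienes that passed the filter, 4 were past the 2-fold limit. Ptafr, the receptor for PAF on neutrophils, macrophages and other cells, stood at 12.7 FPKM with Adv-EV against 35.0 with Adv-IL-17B (2.76 times as high, interval 2.39 to 3.20). Ltb4r1, the high-affinity leukotriene B4 receptor of neutrophils and effector T cells, stood at 2.74 and 6.11 FPKM (2.23 times as high, interval 1.31 to 3.93). Ltb4r2, the low-affinity receptor beside it on chromosome 14, stood at 0.13 and 0.25 FPKM, from about 1 and 2 fragments. Both genes of receptors for cysteinyl leukotrienes, lipids that contract airway muscle and make vessels leak, were past the 2-fold limit. Cysltr1 stood at 0.97 and 2.40 FPKM (2.47 times as high, interval 1.56 to 3.96) and Cysltr2 at 0.52 and 1.34 FPKM, where the interval of 0.867 to 9.29 included equal levels. Cmklr1, the signalling receptor for chemerin, stood at 26.5 and 31.2 FPKM (1.18 times as high, interval 1.03 to 1.34), and its interval lay below that of the other chemerin-binding receptor gene, Ccrl2. Rarres2, which encodes chemerin, stood at 136 and 144 FPKM.

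Among prostanoid receptors, 3 of the 4 genes for prostaglandin E2 receptors had an interval above 1. Ptger2 and Ptger4 encode the receptors EP2 and EP4, which raise cyclic AMP. Ptger2 stood at 1.80 FPKM with Adv-EV against 4.44 with Adv-IL-17B (2.47 times as high, interval 1.66 to 3.70), and Ptger4 at 3.61 and 5.89 FPKM (1.63 times as high, interval 1.202 to 2.27). Ptger3, whose receptor EP3 lowers cyclic AMP, stood at 0.43 and 1.46 FPKM, from about 8 and 26 fragments (3.40 times as high, interval 1.42 to 8.28). Ptger1 stood at 30.47 and 30.65 FPKM (interval of the ratio 0.911 to 1.11). The values of Ptger1 are uncertain, because the handling of strand was not stated. Ptgdr2, the prostaglandin D2 receptor of type 2 lymphocytes and eosinophils, stood at 0.54 and 0.47 FPKM, and Ccdc86 covers 39.0% of its exon bases from the opposite strand.

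The sphingosine 1-phosphate receptors had the lowest median of the classes, a log2 ratio of -0.16, with 0 of 5 past the 2-fold limit. S1pr1, which holds the endothelial barrier and lets lymphocytes leave lymph nodes, was the most abundant of the 48 genes in Adv-EV. It stood at 76.6 FPKM there and 66.3 with Adv-IL-17B (lower by 1.16-fold, interval 1.07 to 1.25). All 7 endothelial markers also had a ratio below 1, with a median log2 ratio of -0.22 and a summed level of 1235 and 1101 FPKM, and their part in S1pr1 was not tested. S1pr2 stood at 20.5 and 26.8 FPKM (1.31 times as high, interval 1.19 to 1.44). S1pr3 (13.3 and 14.7 FPKM), S1pr4 of haematopoietic cells (11.3 and 10.1 FPKM) and S1pr5 of NK cells and patrolling monocytes (1.57 and 1.14 FPKM) had intervals that included equal levels.

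Histamine receptor genes were scarce in Adv-EV. Hrh2, the Gs-coupled receptor also known from gastric acid secretion, stood at 0.38 FPKM with Adv-EV against 2.05 with Adv-IL-17B. That was 5.39-fold higher, from about 6 and 32 fragments (interval 2.19 to 15.6). Hrh1, the receptor that contracts airway muscle and opens venules, was listed at 0 in Adv-EV, which allows up to 0.143 FPKM, and stood at 0.39 in Adv-IL-17B on about 8 fragments. Hrh3, known from the brain, stood at 0.07 FPKM in Adv-EV on about 1 fragment and was listed at 0 in Adv-IL-17B. Hdc, the enzyme gene for histamine synthesis, stood at 41.9 and 45.4 FPKM.

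**Figure D2:**
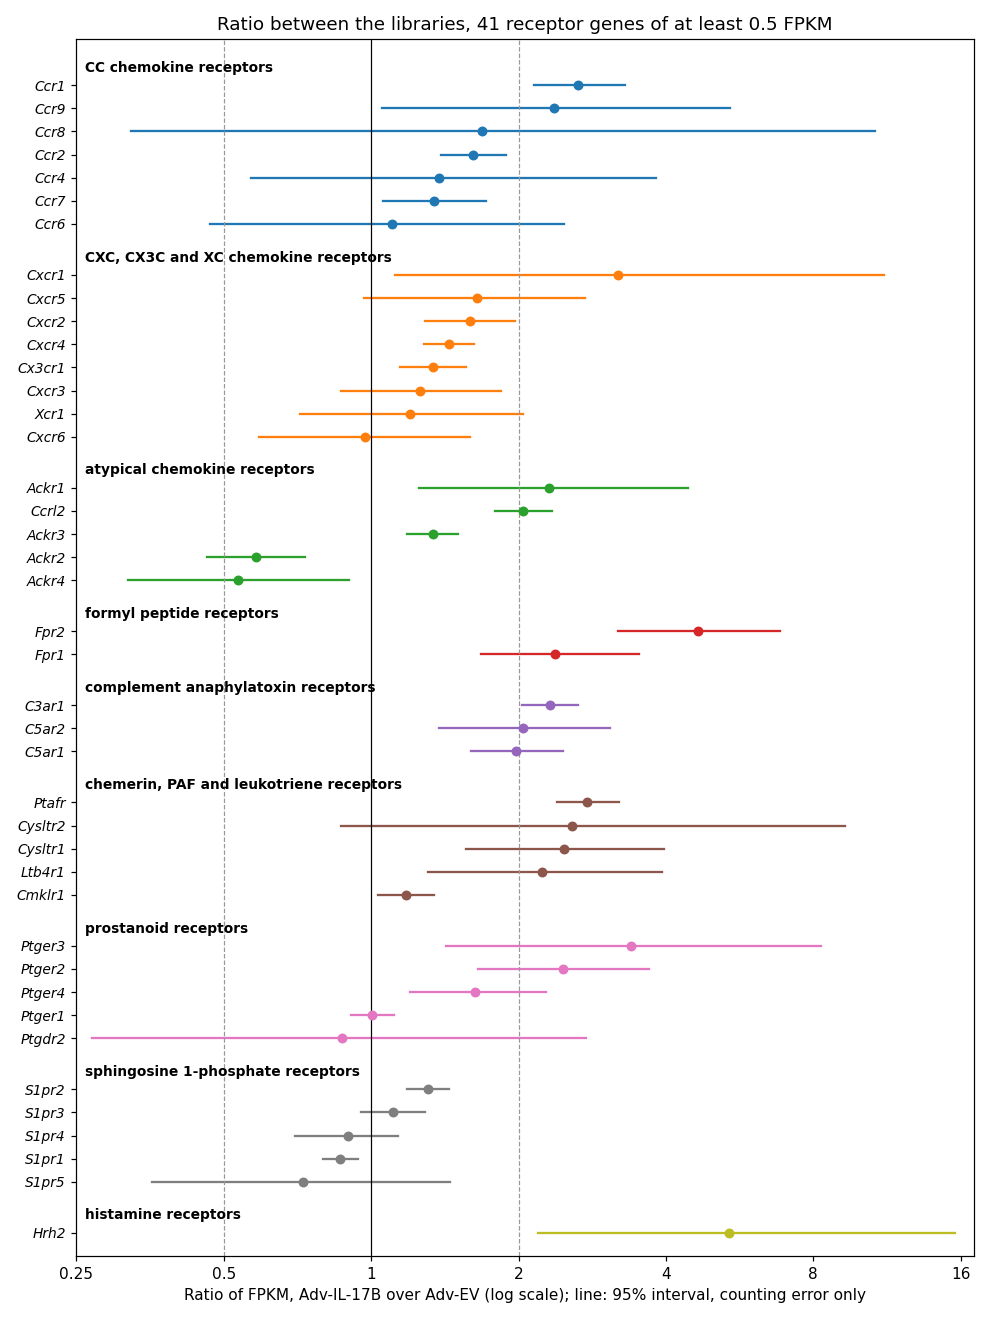
Ratio of FPKM in Adv-IL-17B over Adv-EV on a logarithmic axis for 41 receptor genes that passed the filter, with 1 point per gene and a line for its 95% interval, which covers counting error only. Dashed lines stand at 0.5 and 2, and colours mark classes. Fpr2, Ptafr, C3ar1, Ccr1 and Hrh2 have their whole interval to the right of 2, and Ackr2 and Ackr4 lie left of 1.

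Some members are neighbours in the genome. On mouse chromosome 9, Ccr9, Cxcr6, Xcr1, Ccr1, Ccr1l1, Ccr3 and Ccr2 lie in this order from 123767211 to 124109140 of GRCm38. Ccr9 and Ccr1 were past the 2-fold limit, Ccr2 lay inside it, and Ccr1l1 and Ccr3, between Ccr1 and Ccr2, were at most 0.12 FPKM in either library. Cxcr6 and Xcr1 in the same cluster had intervals that included equal levels, 0.591 to 1.59 and 0.715 to 2.04. A further 12 members lie in groups of 2, of which Fpr1 with Fpr2 were both past the limit. Of Cxcr2 with Cxcr1, Cxcr1 alone was past it, and S1pr2 and S1pr5 lay on opposite sides of 1, but in both of these groups of 2 genes the interval of one gene held the ratio of the other.

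**Figure D3:**
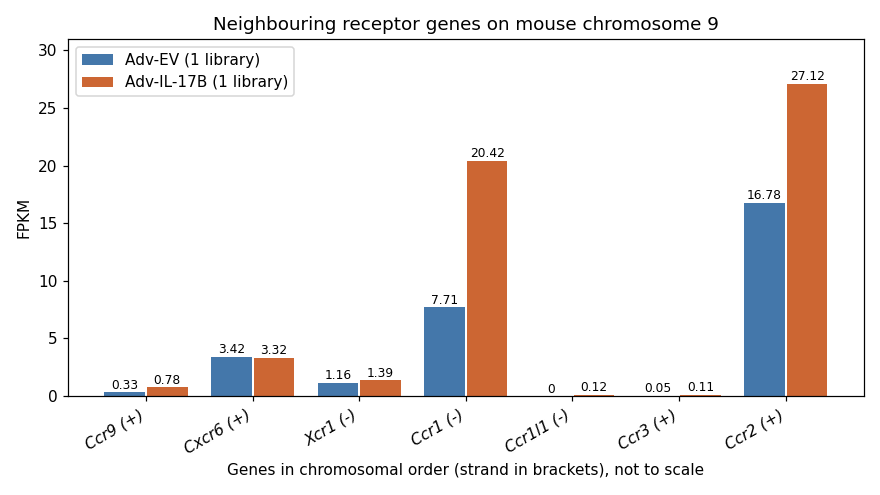
FPKM of 7 neighbouring receptor genes on chromosome 9, in chromosomal order and not to scale, with 1 bar per library. Ccr1 (7.71 and 20.4 FPKM) and Ccr2 (16.8 and 27.1) have the highest levels, and Ccr1l1 and Ccr3 between them are near 0.

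The genes that supply ligands showed unlike amounts of difference beside their receptors. Of 31 chemokine ligand genes that passed the filter, 14 were past the limit upwards and 2 downwards, and the median of their log2 ratios was 0.97. For Cxcr2, at a log2 ratio of 0.66, the ligand genes Cxcl1, Cxcl2, Cxcl3 and Cxcl5 had ratios from 2.14 to 3.20, while Ppbp was at -0.10. For Ccr2, at 0.69, Ccl2, Ccl7 and Ccl12 were at 2.70, 2.29 and 2.06. For Ccr1, at 1.39, the ligand genes compared, Ccl3, Ccl5, Ccl9 and Ccl6, were at 2.57, 1.28, 0.53 and -0.67, which is not a full set of its ligands. Of these, Ccl3 alone was above its receptor. Ccr6, at 0.13, stood beside Ccl20 at 2.33, and Cx3cr1, at 0.41, beside Cx3cl1 at -0.65. Ccl20 stood at 0.65 FPKM in Adv-EV, under its level of 3 fragments (0.701 FPKM), and the interval of its fold was 1.52 to 28.5. Ackr4, at -0.87, stood beside Ccl21a and Ccl25, both at -1.07, and Ccl19 at 0.97. Ccl25 stood at 1.85 and 0.83 FPKM, and the interval of its ratio, 0.123 to 1.42, included equal levels. Of 16 other ligand genes and ligand-making enzymes 0 were past the limit, and their median was 0.06. In the leukotriene pathway Alox5ap stood at 84.6 FPKM with Adv-EV against 152 with Adv-IL-17B, Alox5 at 3.67 and 3.60, and Lta4h, the enzyme that makes leukotriene B4, at 29.8 and 29.5. Ltc4s, which makes cysteinyl leukotrienes, stood at 16.3 and 9.91 FPKM while both their receptor genes were higher. For prostaglandin E2, Ptges stood at 8.71 and 15.3 FPKM and Ptgs2 at 5.23 and 5.38.

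Most signalling genes downstream of these receptors had higher values in Adv-IL-17B. Of 46 such genes, 4 were at least 2-fold higher and 0 lower, beside 3.95% and 2.68% of all genes, 39 had a ratio above 1 and the median log2 ratio was 0.51. The 4 were Itgam, the alpha chain of the integrin Mac-1 (13.4 and 35.1 FPKM), Vav1, an exchange factor for Rac (13.7 and 33.9 FPKM), Fgr, a Src family kinase (8.57 and 20.98 FPKM), and Rgs1, which switches Gi signals off (5.41 and 11.3 FPKM). Inside the limit but above the median of the list were Pik3r5, a regulatory subunit of phosphoinositide 3-kinase gamma, at 8.74 and 15.85 FPKM, its catalytic subunit Pik3cg at 2.84 and 4.81, and Rac2 at 31.8 and 51.4. The broadly expressed Gnai2 (308 and 349 FPKM), Gnb1 (161 and 159 FPKM) and Rac1 (166 and 158 FPKM) were near equal.

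Markers of the cells that carry these receptors also differed between the libraries. Of 12 neutrophil markers, 6 passed the 2-fold limit upwards and 11 had a ratio above 1, with a median log2 ratio of 0.99 and a summed level of 1683 FPKM with Adv-EV against 3054 with Adv-IL-17B. Lcn2, which epithelium also expresses, made up most of that sum at 1281 and 2360 FPKM. Csf3r stood at 12.9 and 39.5 FPKM and Ly6g at 11.7 and 17.6. The 12 monocyte and interstitial macrophage markers all had a ratio above 1, with a median of 0.84 and a summed level of 1182 and 2063 FPKM, and Ly6c2 stood at 102 and 285. The 10 measured alveolar macrophage markers had a median of -0.79, with 4 at least 2-fold lower and a summed level of 510 and 339 FPKM. T and NK cell markers (median 0.19, summed level 96.5 and 103 FPKM) and B cell markers (0.20, 54.1 and 66.0 FPKM) stand beside log2 ratios of 0.32 for Cxcr3, 0.43 for Ccr7, 0.69 for Cxcr5 and -0.04 for Cxcr6. Dendritic cell markers, a list that includes the member Xcr1, had a median of -0.45 with a summed level of 35.9 and 25.6 FPKM. Of the eosinophil, basophil and mast cell markers 4 passed the filter, with a median of -0.38, Fcer1a listed at 0 in Adv-EV and a summed level of 43.6 and 33.2 FPKM, of which Kit made up 39.22 and 30.04. The 4 were Kit, Prg2, Mcpt8 and Siglecf, which is also in the alveolar macrophage list. Prg2 (0.44 and 0.66 FPKM) and Mcpt8 (0.87 and 0.65 FPKM) were near the level of 3 fragments, so this median rests on little. Epithelial markers had a median of -0.34 (summed level 62855 and 42280 FPKM) and smooth muscle and fibroblast markers one of -0.21 (343 and 336 FPKM). The median log2 ratios of Fpr1 and Fpr2 (1.72) and of the chemerin, PAF and leukotriene receptors (1.22) lay above those of the neutrophil and monocyte markers, and Cxcr2 (0.66) and Ccr2 (0.69) lay below. Single markers spread widely, from -0.07 (G0s2) to 2.63 (Stfa2l1) for neutrophils and from 0.52 (C1qa) to 1.48 (Ly6c2) for monocytes and interstitial macrophages. Cxcr2, Ccr2 and the median of 1.22 lay inside both ranges, and that of 1.72 inside the neutrophil range only. The part of these marker differences in the receptor values was not tested.

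**Figure D4:**
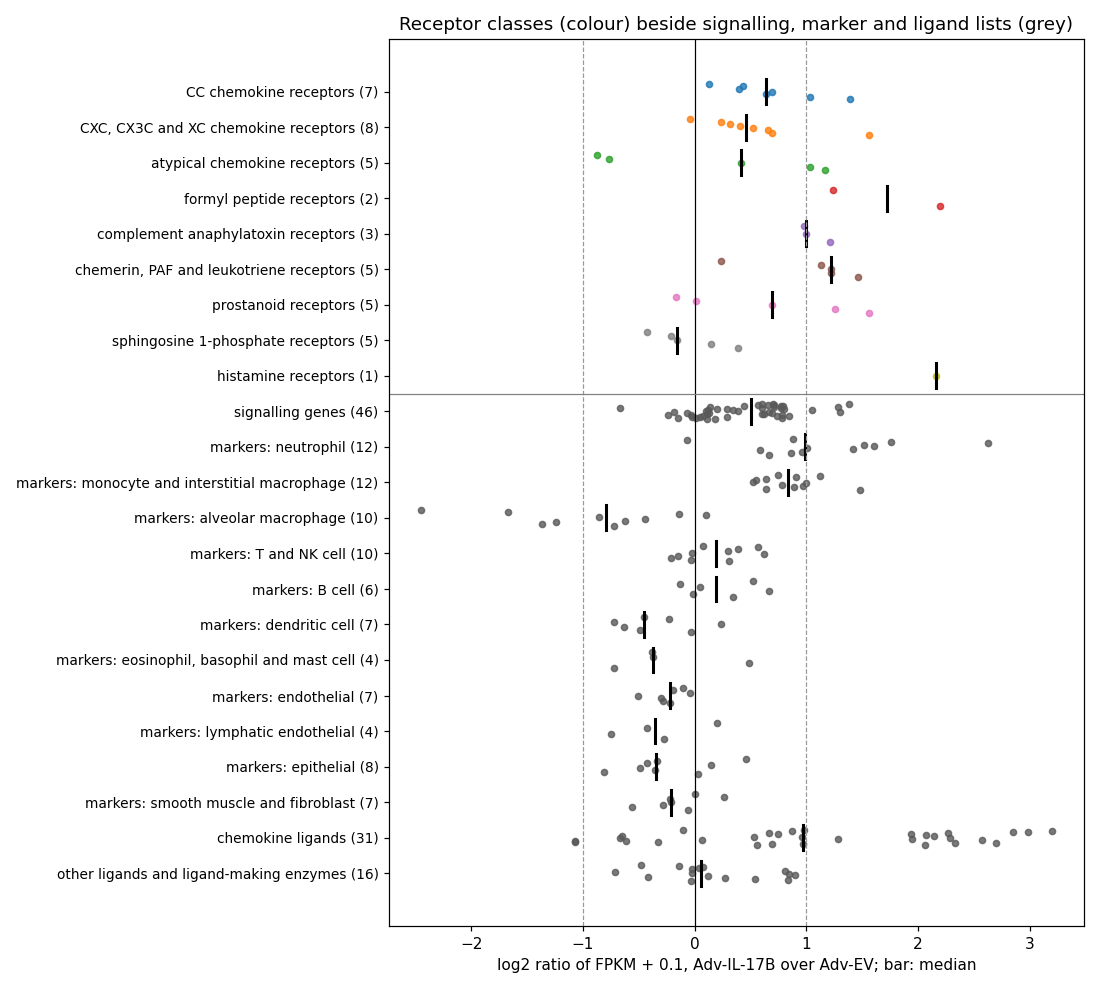
Log2 ratio of FPKM + 0.1 in Adv-IL-17B over Adv-EV for each gene that passed the filter, by receptor class (coloured points) and by signalling, marker and ligand list (grey points), with the number of genes in brackets, a black bar at the median and dashed lines at the 2-fold limits. Formyl peptide receptors (median 1.72) and neutrophil markers (0.99) lie to the right, and sphingosine 1-phosphate receptors (-0.16) and alveolar macrophage markers (-0.79) to the left of 0.

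Promoter sequence was compared with that of all genes. RefSeq tables on GRCm38.p6 held 48 starts for 40 of the 48 genes, and the 250 bases before each were searched on both strands. Besides the motifs above, these were a PU.1-type ETS core (GAGGAAGT), an AP-1 site (TGANTCA), a C/EBP site (TTGCNNAA) and part of an interferon response element (GAAANNGAA). The NF-kappaB consensus was found before 8.33% of the members' starts and 3.9% of all, the ETS core before 6.25% and 2.44%, and the TATA box before 16.7% and 12.4%. For AP-1 the shares were 8.33% and 6.75%, for C/EBP 8.33% and 9.56%, for the STAT site 6.25% and 7.02% and for the interferon element 6.25% and 7.13%. Each of these member shares rests on 3 to 8 of the 48 starts, some of them of the same gene. The ETS core lay before both starts of Hrh2 and the start of Cxcr3, and the interferon element before C5ar1, Ccr2 and Cxcr1. The windows before Ptafr, Ccr1 and Ptger2, all past the 2-fold limit, held none of the 7 motifs.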

How the data were processed

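Lung RNA of 2 groups was measured, 1 library each, grouped by title. The values the authors deposited are FPKM per gene, as the column headers state, with 2 decimals. Bowtie2, HISAT and the build mm10 are named in the submitters' processing notes. For the step to FPKM, its annotation, its filters and its treatment of strand or repeated matches, the method was not given in the sources used here.

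From these values, ratios were computed on log2(FPKM + 0.1), which understates differences of low genes, beside plain folds. The filter was a mean of at least 0.5 FPKM. Depth came from the step at which low FPKM times length (less 30 bp) is most nearly whole, searched from 0.03 to 0.35 on 1 kb. At the chosen step 81.6% (Adv-EV) and 80.5% (Adv-IL-17B) of 1325 and 1297 low values were whole to within 0.2. Lengths were those of GENCODE M21, the longest where several matched, so fragments and intervals are approximate. The search and intervals were tested on simulated data. Python 3.11.15, SciPy 1.17.1 and pandas 2.3.3 were used. The 48 members and all lists were chosen with earlier results of these data known. Of the members 1 is not reported here by name and is left out of the figures, while counts over all members include it. The others are named, with other genes only as ligands, signalling genes past the limit, or markers beside a result. Signalling genes inside the limit were picked as examples after their values were seen.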

Additional observations from a re-analysis of the deposited data

How the results depend on the processing

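Of the 16 members at least 2-fold higher among the 42 that passed the filter, 8 were so with a pseudocount of 1 FPKM in place of 0.1, and the median log2 ratio of members went from 0.67 to 0.51. That pseudocount shrinks low values by construction. With a mean of at least 2 FPKM 10 of 30 members were higher, since 12 fewer were counted. With no filter 18 of 48 were higher, or 17 with values of 0 set to their floor of 3 fragments, an alternative chosen after seeing the data. A 1.5-fold rule gave 23 higher and 2 lower (Ackr2 and Ackr4) in place of 16 and 0. Setting the median log2 ratio of all genes to 0 moved every ratio by 0.006 and brought C5ar2 over the limit (17 higher). Upper quartile scaling moved ratios by -0.052, took Ccrl2 and Ccr9 inside the limit (14 higher) and put Ptger1 below 1. No member past the limit changed direction under any of these settings. The share of all genes past the limit was not computed for the pseudocount of 1, the filter at 2 FPKM or either scaling. The counts of members at those settings therefore have no background beside them. No paired analysis was possible because each group has 1 library. Depth limits Cxcr1, Cysltr2, Ptger3, Hrh1, Hrh2, Ccr4, Ccr8, Ccr9, Ptgdr2 and all members under 0.5 FPKM. These rest on about 10 fragments or fewer in Adv-EV.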

Other observations

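Within neighbouring or functionally paired receptors, the level of one gene relative to the other differed between the libraries for some pairs, which were chosen after their values were seen. The level of Fpr2 was 0.935 times that of Fpr1 in Adv-EV and 1.83 times in Adv-IL-17B. Cxcr1 stood at 0.0935 times the level of Cxcr2 in Adv-EV and 0.188 times in Adv-IL-17B, on about 5 and 16 fragments of Cxcr1. Ccr1 stood at 0.459 times the level of Ccr2 in Adv-EV and 0.753 times in Adv-IL-17B. Other pairs kept nearly the same ratio of levels. Cysltr1 stood at 1.87 times Cysltr2 in Adv-EV and 1.79 times in Adv-IL-17B, on about 5 and 13 fragments of Cysltr2, and Ackr2 at 3.58 and 3.89 times Ackr4. Cxcr4 stood at 1.73 and 1.86 times Ackr3, the other receptor for CXCL12. These ratios compare 1 library with 1 library and were not tested.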
